A study of Arabidopsis thaliana with 30 samples.

Results

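Of 13355 Arabidopsis thaliana genes measured by a named probe set, 20 formed the set described here: genes raised by auxin in the stele and the xylem-pole pericycle of the root with little change in the epidermis and the columella. Members were chosen by their measured changes, each the mean log2(signal + 16) of 3 auxin arrays minus that of 3 mock arrays. A member had a change of at least 1 in the stele and in the pericycle, a change between -0.5 and 0.5 in the epidermis and in the columella, and a mean signal of at least 100 in auxin-treated stele or pericycle. Class III peroxidases, histones, ribosomal proteins and AAA-type ATPases were to be left out, and no probe set that met the thresholds was named as one of these. The members' changes in the 4 sorted tissues and the levels behind them are therefore given as a description without a test. The members were tested only in intact roots, which had no part in the choice.

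All seedlings were Col-0, 1 week old. Auxin groups had received 5 µM IAA (indole-3-acetic acid, the main natural auxin) for 2 h, and mock groups solvent alone. The stele was sorted by fluorescence through pWOL::GFP, the xylem-pole pericycle through the enhancer trap E3754, the epidermis with the lateral root cap through pWER::GFP, and the columella through the enhancer trap PET111. Sorted cells had first passed 1 h of wall digestion. The design text puts 5 µM IAA in that step and does not say whether mock roots were digested without it. Intact roots were neither digested nor sorted. Each of the 10 groups held 3 arrays, 30 in all, and array medians ran from 54.4 to 83.0 signal units. No label ties arrays to separate cultures, so p-values measure the spread between these arrays, which may be in part technical. The pericycle is anatomically the outermost layer of the stele, and whether the 2 inner sorts shared cells was not tested.

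Auxin acts through nuclear receptors that mark Aux/IAA repressors for destruction and so release auxin response factors. In the vascular cylinder it guides vein and xylem patterning, and in the pericycle it drives the founder divisions of lateral roots. Dividing cells also need new ribosomes, which are made in the nucleolus, where RNA polymerase I transcribes ribosomal RNA genes and the precursors are trimmed and assembled into ribosomes.

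Only 3 of the 20 genes have a descriptive symbol in the RefSeq table used. NRPA2 encodes a large subunit of RNA polymerase I. TET10 encodes a tetraspanin, a membrane protein of a family that organises plasma membrane domains. DLAH encodes a lipid acylhydrolase related to DAD1. The other 17 carry only a locus number here and are given by it, without a role. Each member is on a probe set whose name bears no cross-hybridisation suffix, and no pair of members are neighbours on a chromosome: the closest stood 55 places apart in gene order. No member was among the genes listed for comparison, of which few could be: a named probe set was at hand for 12 of 38 early auxin genes, 4 of 15 lateral root, 1 of 18 vascular and 1 of 13 cell cycle genes.

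The 20 genes are a small share of those raised in the inner tissues. With a signal of at least 100, 135 probe sets had a change of at least 1 in both stele and pericycle. In 58 of these the change was also at least 1 in both epidermis and columella, in 27 it was so in 1 of the 2 outer tissues, and in 30 it lay below 1 in both but left the window in at least 1. None of the 135 had a change of -1 or less in either outer tissue, and the remaining 20 are the members. The mirror rule found 10 probe sets with a change of at least 1 in epidermis and columella and between -0.5 and 0.5 in stele and pericycle, out of 150 raised in both outer tissues.

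**Figure D1:**
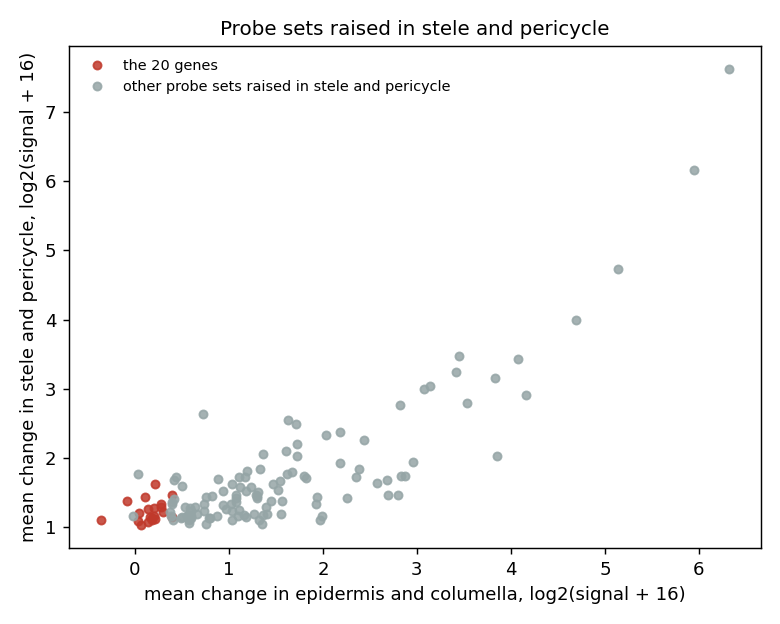
Mean change in epidermis and columella (horizontal axis) against mean change in stele and pericycle (vertical axis), both in log2(signal + 16), for the 135 probe sets with a change of at least 1 in both inner tissues and a signal of at least 100. The 20 members (red) sit at the lower left, where the thresholds put them, and continue into the grey cloud without a gap.

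Membership was close to the thresholds at several edges. The lowest stele changes inside were 1.01 for AT2G37400 and 1.02 for AT3G21540, and just outside lay AT2G40010 at 1.00 and AT1G08220 at 0.97. In the pericycle AT1G51380 (1.01) and DLAH (1.03) were just inside, and AT4G21323 and AT5G37540 (both 0.99) just outside. In the epidermis the widest members were AT3G46210 and AT1G80850, with changes of 0.40 and 0.39 in size, and AT5G19540 and AT2G18900 missed at 0.51. In the columella AT2G38370 and AT1G30960 stayed in at 0.49 and 0.46, while AT2G28790 and RRP41L fell out at 0.51 and 0.55. The dimmest members, AT1G51380 and AT3G53940, had mean signals of 121 and 126, and PDF1B and AT4G05040 missed at 95.7 and 84.96. A pseudocount of 1 in place of 16 gave 33 probe sets, 15 of them among the 20, and a pseudocount of 64 gave 8, of which 4 were. Without pericycle mock replicate 2 the rule found 34, 18 of them among the 20. AT5G54130 and AT3G53940 met the rule whichever of the 24 sorted arrays was left out, AT5G38720 in 23 of 24 cases, and DLAH, the least steady, in 17.

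Within the set the inner changes were modest and alike. Stele changes ran from 1.01 to 1.84 with a median of 1.18, and pericycle changes from 1.01 to 1.68 with a median of 1.17. The change was larger in the stele for 10 members and larger in the pericycle for the other 10. Auxin arrays lay above all mock arrays for 20 members in the stele, where 25.5% of all 9323 genes tested did so, and for 18 in the pericycle, where 13.2% did. These 2 counts follow from the choice of members. In the epidermis changes ran from -0.36 to 0.40 (median 0.22) and in the columella from -0.37 to 0.49 (median 0.22), and they were above 0 for 16 and 15 members, where 56.2% and 54.7% of all genes tested were. The median standard error of a change was 0.30, so the window in the outer tissues does not show that nothing moved there. AT1G80850 changed by 0.39 in both outer tissues, and its auxin arrays lay above all mock arrays in each of them, as they did for 16.3% of all genes in the epidermis and 12.9% in the columella.

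**Figure D2:**
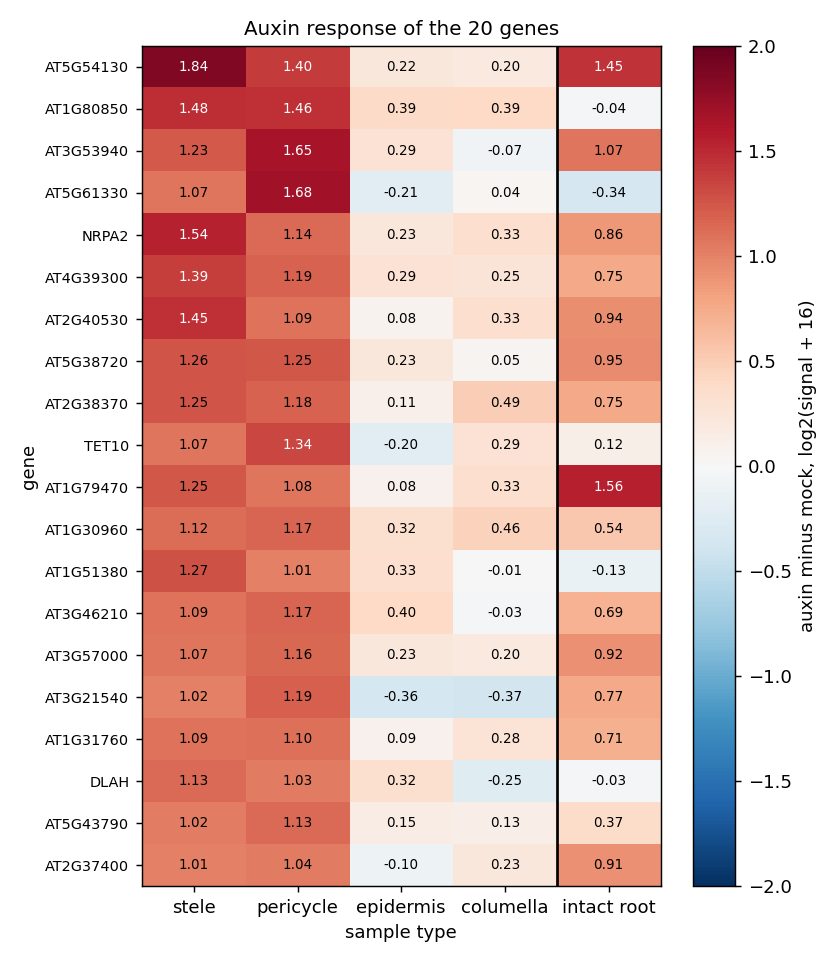
Auxin minus mock change in log2(signal + 16) for each of the 20 genes (rows, ordered by mean inner change) in the 4 sorted tissues and in intact roots (columns). The first 4 columns chose the members; the last column, right of the line, had no part in the choice and ranges from -0.34 to 1.56.

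The level of the set differed by tissue as well as by treatment. Averaged over the 20 genes, log2(signal + 16) was 8.50 ± 0.10 in auxin-treated and 7.27 ± 0.12 in mock-treated stele (SD, n = 3 each). In the pericycle it was 7.79 ± 0.11 with auxin and 6.57 ± 0.12 in mock. In the epidermis it was 6.88 ± 0.24 with auxin and 6.74 ± 0.32 in mock, and in the columella 6.75 ± 0.25 and 6.58 ± 0.28. Intact roots had 7.43 ± 0.13 with auxin and 6.79 ± 0.06 in mock. The pericycle without auxin thus stood no higher than the 2 outer tissues, whose arrays spread over a wider range than the inner ones. The sorted arrays chose the members, so their levels are a description. In the epidermis, replicate 1 was the lowest array of both the auxin group (6.61) and the mock group (6.37). The columella had a low array in each group too, auxin replicate 2 (6.46) and mock replicate 1 (6.28).

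**Figure D3:**
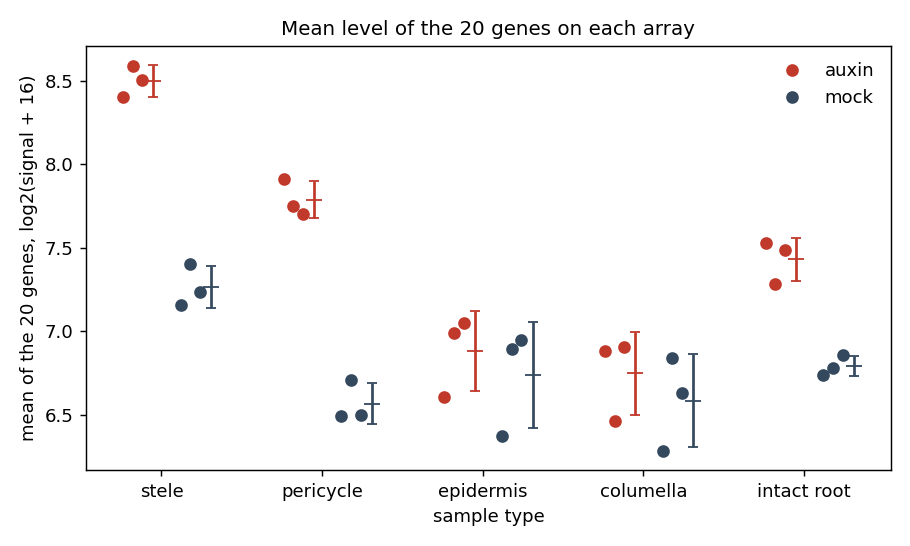
Mean of the 20 genes on each array, in log2(signal + 16), with auxin arrays (red) left of mock arrays (dark) for each sample type; bars give the mean and SD of 3 arrays. Auxin and mock arrays are apart in stele, pericycle and intact roots and overlap in epidermis and columella.

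Gene by gene, most of these transcripts had their highest signal in the stele. The mean auxin signal was highest there among the 4 sorted tissues for 18 of 20 members, where 40.2% of all genes tested were, and the mean mock signal for 17, where 35.6% were. The rule asked for signal in auxin-treated stele or pericycle, so the auxin count follows in part from the choice. The mock stele arrays entered the changes that chose the members, so the mock count is not independent of the choice either. The pericycle had the lowest mean mock signal of the 4 sorted tissues for 10 members. Its mean mock signal was below that of both outer tissues for 11. With auxin its mean passed both outer tissues for 20 of 20, and passed the mock stele mean for 18. These pericycle counts rest on arrays whose changes chose the members, so they follow in part from the choice. Their shares over all genes were not computed. The ratio of stele to pericycle mean signal was 1.90 with auxin (median over members, range 0.321 to 3.71) and 2.12 in mock (range 0.249 to 3.22). DLAH held the low end of both ranges. It and AT1G80850 were the members with more signal in auxin-treated pericycle than in auxin-treated stele.

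NRPA2 had a stele change of 1.54, below that of AT5G54130 (1.84) and above those of the other 18 members. Its signal was 992, 944 and 1062 in auxin-treated stele, against 282, 464 and 283 in mock stele. In the pericycle it was 372, 599 and 396 with auxin, against 188, 171 and 226 in mock. The groups did not overlap in either tissue. In the epidermis NRPA2 had 155, 350.4 and 411 with auxin, against 147, 306 and 299.6 in mock. In the columella it had 202, 217 and 274 with auxin, against 101, 301 and 184 in mock. The outer groups overlapped, and the low epidermis array of each group was replicate 1.

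Other genes with a name tied to RNA polymerase I or the nucleolus were looked up after NRPA2 had been seen in the set. Their sorted-tissue changes are therefore described without a test. A search of RefSeq names found 20 such genes, of which 4 were tested: NRPA2 itself, NRPA1, RRP41 and RRP41L. It could not find a gene without such a name, and 17 members carry only a locus number. NRPA1, the largest subunit of the same polymerase, changed by 0.78 ± 0.29 in stele cells and by 0.88 ± 0.29 in pericycle cells (SE), with -0.02 in the epidermis and 0.05 in the columella. RRP41, a subunit of the RNA exosome, which trims ribosomal RNA precursors, changed by 0.89 ± 0.32 in the stele, 0.70 ± 0.32 in the pericycle, 0.24 in the epidermis and 0.08 in the columella. RRP41L, its close relative, changed by 1.24 ± 0.31, 1.08 ± 0.31, 0.23 and 0.55 in the same tissues and missed the set by its columella value alone. In intact roots NRPA1 changed by 0.40 ± 0.29, RRP41 by 0.46 ± 0.32 and RRP41L by 0.71 ± 0.31 (SE). All 4 genes had intact changes above 0, where 47.9% of all genes tested did. Of the 4, limma called 0 higher there, where 6.61% of all genes were.

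TET10 was a low-signal member with its highest level in the stele. Its signal was 165, 111 and 207 in auxin-treated stele, against 42.3, 65.7 and 99.8 in mock stele. In the pericycle it was 88.9, 69.0 and 58.3 with auxin, against 28.0, 34.9 and 2.34 in mock. Both outer tissues stayed at or under 41.6 on all arrays, near the pseudocount of 16, where the scale compresses any change. Of 16 tetraspanin genes, looked up after TET10 had been seen, 11 were tested. For TET16 the stele gave 0.96 ± 0.40 and the pericycle 0.90 ± 0.40 (SE), with 0.19 in the epidermis. TET11 had 1.21 ± 0.43 in the stele and 0.67 ± 0.43 in the pericycle, but also 1.20 ± 0.43 in the epidermis. The other 8 lay between -0.66 and 0.55 in the stele. In intact roots TET16 changed by -0.08 ± 0.40 and TET11 by 0.11 ± 0.43. Of the 11 tetraspanins, limma called 0 higher and 3 lower there, with a median change of -0.22. Of all genes tested, 6.61% were called higher and 5.34% lower.

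DLAH differed from the rest in where it was expressed. Its signal was 228, 206 and 209 in auxin-treated pericycle, against 93.4, 90.6 and 106 in mock pericycle, and the groups were far apart for their spread. In the stele it reached 42.8, 62.3 and 101 with auxin, against 41.3, 5.92 and 24.9 in mock, where auxin replicate 1 lay barely above mock replicate 1. Intact roots had far more, 468, 379 and 409 with auxin and 312, 508 and 482 in mock, and these groups overlapped.

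**Figure D4:**
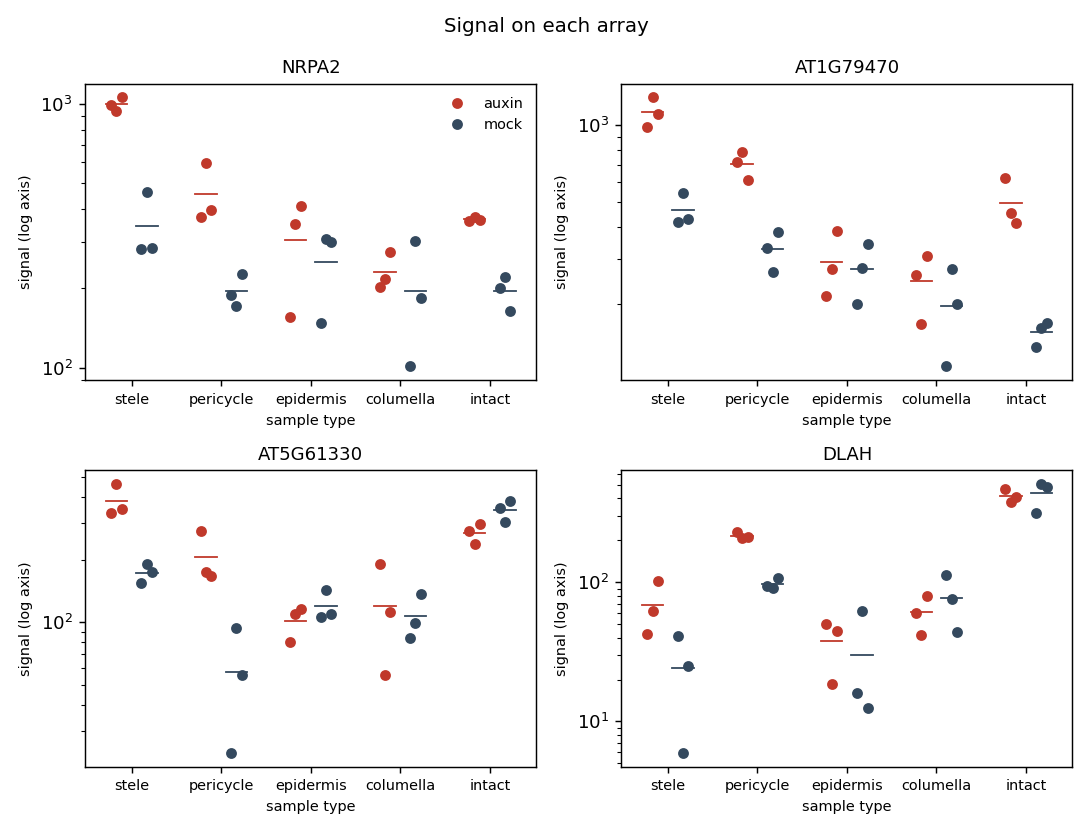
Signal on each array (log axis) of NRPA2, AT1G79470, AT5G61330 and DLAH in 5 sample types, auxin arrays (red) left of mock arrays (dark), with a line at each group's mean. NRPA2 and AT1G79470 are higher with auxin in stele, pericycle and intact roots; AT5G61330 and DLAH are higher with auxin in stele and pericycle only, as far as group separation goes.

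Of the loci without a symbol, AT5G54130 had the largest inner change, 1.84 in the stele and 1.40 in the pericycle. Its signal was 506, 624 and 603 in auxin-treated stele, against 174, 141 and 134 in mock stele, and 161, 186 and 289 in auxin-treated pericycle, against 52.5, 71.2 and 84.2 in mock. The inner groups did not overlap. A brighter probe set of the same gene gave 2.19 for the stele and 1.33 for the pericycle. It had -0.52 in the epidermis and 0.59 in the columella and so lay outside the window, so this gene's membership rests on which of its probe sets is read.

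AT1G80850 had a high signal in all 4 sorted tissues. It had 573, 561 and 605 in auxin-treated stele, against 199, 234 and 166 in mock. In the pericycle it had 836, 449.8 and 601 with auxin, against 332, 299 and 92.5 in mock. In the epidermis its values were 552, 391 and 474 with auxin, against 349, 337 and 375 in mock. In each of these tissues the auxin and mock arrays were apart.

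AT3G53940 and AT5G61330 had the largest pericycle changes, 1.65 and 1.68. AT3G53940 had 115, 79.8 and 77.2 in auxin-treated pericycle, against 18.4, 17.2 and 17.4 in mock. In the stele it had 155, 99.5 and 123 with auxin, against 35.8, 53.7 and 43.2 in mock. The mock pericycle arrays of AT3G53940 lay close together, near the level of the pseudocount. AT5G61330 had 274, 175 and 167 in auxin-treated pericycle, against 23.4, 93.3 and 55.6 in mock, with mock replicate 1 the lowest. In the stele AT5G61330 had 336, 463 and 350.3 with auxin, against 155, 190.4 and 174 in mock.

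AT4G39300 and AT2G40530 were, like most members, higher in the stele than in the pericycle. AT4G39300 had 199.96, 229.9 and 396 in auxin-treated stele, against 84.4, 88.0 and 101 in mock, and its auxin replicate 3 stood above the other 2. AT2G40530 had 156, 297 and 149 in auxin-treated stele, against 58.4, 66.1 and 54.7 in mock. In the pericycle AT2G40530 had only 45.6, 64.1 and 52.5 with auxin, against 13.6, 34.7 and 7.30 in mock, and in both outer tissues no array exceeded 27.6.

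The brightest members were AT3G57000, AT1G79470 and NRPA2, followed by AT5G38720. AT3G57000 had 1343, 1536 and 1219 in auxin-treated stele, against 539, 805 and 599 in mock, and 675, 574 and 926 in auxin-treated pericycle, against 279.9, 361 and 295 in mock. AT1G79470 had 979.7, 1285 and 1107 in auxin-treated stele, against 419, 543 and 429 in mock, and 719, 782 and 611 in auxin-treated pericycle, against 332, 267 and 383 in mock. AT5G38720 had 720.2, 798 and 831 in auxin-treated stele, against 329, 344 and 282 in mock, and 571, 409 and 452 in auxin-treated pericycle, against 98.3, 169 and 397 in mock. All these groups were apart, though mock pericycle replicate 3 of AT5G38720 lay close to its lowest auxin array. AT2G37400, with 469.9, 445 and 433 in auxin-treated stele against 230.3, 221 and 196 in mock, had the smallest mean inner change of the set, 1.02. The remaining 7 members, AT2G38370, AT1G30960, AT1G51380, AT3G46210, AT3G21540, AT1G31760 and AT5G43790, had inner changes between 1.01 and 1.27.

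The test asked whether the same genes respond in roots that were neither digested nor sorted. It compared auxin and mock among the 6 intact root arrays, which the rule did not use. The spread behind its p-values came from all 30 arrays, including the sorted ones that chose the members. In limma, 19 of the 20 members entered the test, and AT5G54130 entered through its brighter probe set. Of these 19, 5 rose and 0 fell at an adjusted p under 0.05, where 6.61% of all 9323 genes rose and 5.34% fell. At an unadjusted p under 0.05, 12 of the 19 were higher, where 11.8% of all genes were. The median change of the 19 was 0.75, against -0.02 for all genes tested, and 15 of the 19 changes were above 0, where 47.9% of all were. The signal filter could be passed through any 3 of the 30 arrays, those that chose the members included, so the comparison with all genes is a description.

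AT1G79470 had the clearest response of intact roots. Its signal was 621, 453 and 414 with auxin, against 136, 161 and 169 in mock, a change of 1.56 ± 0.26 (SE; 2.95-fold; limma adjusted p = 2.71e-05; adjusted p between 1.12e-07 and 8.4e-04 over the alternatives). It was the one member whose intact change exceeded both inner changes. AT3G53940 had 63.5, 72.9 and 66.4 with auxin, against 11.6, 33.9 and 29.3 in mock, and rose by 1.07 ± 0.30 (limma adjusted p = 0.0143). AT2G37400 had 401, 250.5 and 349 with auxin, against 163, 183 and 157 in mock, and rose by 0.91 ± 0.25 (limma adjusted p = 0.0107). In all 3 genes every auxin array lay above every mock array. AT3G53940 was not called without mock replicate 1 (limma adjusted p = 0.135) or auxin replicate 2 (0.0522), nor AT2G37400 without auxin replicate 1 (0.0831).

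AT3G57000 and AT5G38720 rose by 0.92 ± 0.28 (limma adjusted p = 0.0251) and 0.95 ± 0.31 (limma adjusted p = 0.0377). AT3G57000 had 739, 638 and 725 with auxin, against 402, 298 and 398 in mock. AT5G38720 had 532, 374 and 516 with auxin, against 282, 185 and 249.8 in mock. The groups of both genes were apart, yet both calls were also lost when single arrays were left out (limma adjusted p up to 0.135 and 0.188). AT5G54130, whose member probe set was not in that test, had 145, 144 and 244 with auxin, against 39.9, 58.4 and 63.2 in mock. Its brighter probe set rose by 1.19 ± 0.28 (limma adjusted p = 0.00331), and with every probe set tested on its own the member probe set rose by 1.45 (limma adjusted p = 1.81e-04).

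NRPA2 narrowly missed, with 358, 373 and 363 in auxin-treated intact roots, against 200.1, 220.0 and 164 in mock. Its change was 0.86 ± 0.30 (limma adjusted p = 0.0547), and it was called in 6 of 17 alternatives. Changes of AT2G40530, AT3G21540, AT4G39300, AT2G38370, AT1G31760, AT3G46210 and AT1G30960 lay between 0.54 and 0.94 and were not called, although their auxin arrays were all above their mock arrays. Over the set, the auxin and mock groups of intact roots were apart in that direction for 14 of 20 members, where 16.5% of all genes tested were. The count of 5 called members was 2 without intact auxin replicate 1 and 3 without auxin replicate 3 or mock replicate 2. It was 8 with the replicate number as a block, and 12 with the fit limited to intact roots or with array weights.

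The other members gave no call. TET10 changed by 0.12 ± 0.34, DLAH by -0.03 ± 0.35, AT1G80850 by -0.04 ± 0.27, AT1G51380 by -0.13 ± 0.32 and AT5G43790 by 0.37 ± 0.34. AT1G80850 had 178, 178 and 163 with auxin, against 185, 175 and 172 in mock, below all its sorted inner auxin arrays. AT5G61330 had 274, 237 and 297 with auxin, against 354, 302 and 382 in mock, a change of -0.34 ± 0.30 (limma adjusted p = 0.592) with every auxin array below every mock array, as for 18.4% of all genes tested. The intact change was smaller than both inner changes for 18 of 20 members. The rule held both inner changes at 1 or more, so this count follows in part from the choice. Its share over all genes was not computed. An intact root mixes all tissues, and fewer cells of a type cannot be told apart from less RNA per cell.

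**Figure D5:**
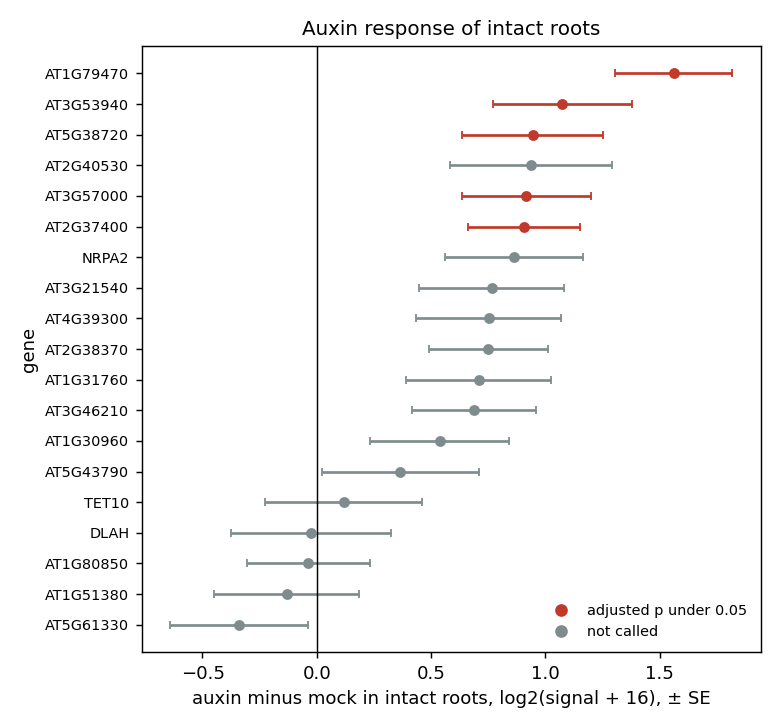
Auxin minus mock change of intact roots in log2(signal + 16), with its standard error, for the 19 members tested. The 5 called genes (red) range from 0.91 to 1.56, and the 5 lowest lie between -0.34 and 0.12.

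The 19 members had a median intact change of 0.75, with 5 higher and 0 lower. The 115 other probe sets tested that were raised in stele and pericycle had a median of 0.67, with 43 higher and 1 lower. They include the brighter probe set of the member gene AT5G54130, which was among those called higher. The difference was not tested. Intact mock levels also varied: they were below all 4 sorted mock means for 10 members and above all 4 for 3. The sorted mock arrays entered the changes that chose the members, and the shares over all genes were not computed. AT2G38370 was among the 3 above. It had 568, 676 and 537 in auxin-treated intact roots and 315, 352 and 369 in mock, against 304, 323 and 264 in auxin-treated stele.

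Among the listed auxin pathway genes, 11 early auxin genes (Aux/IAA repressors and GH3 conjugating enzymes) were tested, of which 7 rose and 0 fell in intact roots, with a median change of 2.07. IAA29 changed by 6.71 ± 0.29, GH3.1 by 5.73 ± 0.20, GH3.3 by 4.91 ± 0.23 and IAA30 by 4.74 ± 0.27 (SE). Of 4 lateral root initiation genes 3 rose, LBD29 by 5.597 ± 0.349, PUCHI by 2.11 ± 0.35 and LBD16 by 1.69 ± 0.28. LHW, a vascular regulator, and MCM7 (listed as PRL), a DNA replication factor, were the tested genes of the vascular and cell cycle lists, and neither was called, at -0.35 ± 0.32 and 0.51 ± 0.31. The members' largest intact change, 1.56, was thus below the median of the early auxin genes.

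Markers could check few of the labels. None of 6 stele, 3 pericycle and 4 columella markers had a named probe set here. The root hair expansins EXPA7 and EXPA18 had mock means of 295 and 314 in the epidermis, 144 and 171 in the columella, 91.1 and 99.5 in the pericycle and 83.6 and 98.3 in the stele. So the mock epidermis was highest, and the other mock sorts were not free of these transcripts. Both expansins were lower with auxin in all 4 sorts, with auxin means of 35.4 (EXPA7) and 4.94 (EXPA18) in the epidermis. Stele changes were -1.06 ± 0.34 for EXPA7 and -2.12 ± 0.36 for EXPA18, and pericycle changes -1.498 ± 0.341 for EXPA7 and -1.95 ± 0.36 for EXPA18 (SE). All 4 falls were called by limma, in tissues where the members were higher with auxin. Of all 9323 genes tested, 946 were called lower in the stele and 531 in the pericycle. In intact roots neither was called, at 0.26 ± 0.34 and -0.09 ± 0.36. The part of these transcripts in the members' inner changes was not tested. Of 3 endodermis and cortex markers tested, 2 fell with auxin in intact roots: GSO1 (SGN3) by 1.28 ± 0.28 and AT1G09750 (C1) by 1.49 ± 0.35 (SE; limma). Their part in the intact root result was not tested.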

How the data were processed

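RNA had been amplified and biotin-labelled before hybridisation, per the labels' protocols. The authors deposited 1 intensity per probe set and array on a linear scale, and the submitters' processing notes name MAS5; version and chip definition: not given in the sources used here. In the values, the mean without the lowest and highest 2% of 22810 probe sets was 250.0 on every array. Gene names came from the platform's annotation table (13513 with 1 gene, 503 with several, 8730 not listed, 64 controls), and 13436 matched the RefSeq table of TAIR10.1, used only for names and gene order. Each gene entered the test through its brightest probe set (mean log2 over all arrays), if above the 40th percentile of its array on at least 3 of 30 arrays (9323 genes). Values were analysed as log2(signal + 16), which understates changes of low genes.

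Using limma 3.58.1 under R 4.3.3, a fit of 10 group means, empirical Bayes with an intensity trend and 20 residual degrees of freedom gave the intact root response. The same fit gave the calls of the expansins in stele and pericycle. Tests were two-sided, with Benjamini-Hochberg adjustment over all genes tested. The ± after a change is its standard error. The main fit has no replicate block. For arrays, 3 per group limit the precision. The members and lists were chosen with earlier results of these data known. Values by array are given for the 8 largest mean inner changes, the members called in intact roots, the 4 brightest and those with an annotated role; AT2G38370 was added after its values were seen. Python 3.11.15 with matplotlib 3.10.9 made the plots.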

Additional observations from a re-analysis of the deposited data

Results flagged for a closer look

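AT5G61330 had changes of opposite sign in intact roots and in the stele. Every intact auxin array lay below every intact mock array (change -0.34 ± 0.30), as for 18.4% of all genes tested. Every auxin-treated stele array lay above every mock stele array (change 1.07). The difference was not tested, because the stele change had chosen the gene, and the intact change alone was not called by limma.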

How the results depend on the processing

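The set itself depended on the settings: 33 probe sets with a pseudocount of 1, 8 with 64, 10 with a window of 0.3, 20 with quantile normalization (14 of them members), and 14 to 34 when single sorted arrays were left out. Of 19 members tested, 12 were called higher in intact roots with the fit limited to those arrays or with array weights, 8 with the replicate block, and 2 to 5 with 1 intact array left out; none was called lower under any of the 17 alternatives. Deviations of same-numbered auxin and mock arrays correlated between -0.012 and 0.066 in intact roots, 0.014 and 0.09 in the pericycle, 0.031 and 0.118 in the stele, 0.055 and 0.253 in the columella, and 0.087 and 0.375 in the epidermis. In no sample type were all 3 above 0.1, so the numbers were not taken to pair the arrays. This does not show that the arrays were unpaired, and the replicate block is given as an alternative. Over all genes, 961 rose and 926 fell with intact arrays only, and 1079 and 961 with array weights, against 616 and 498 in the fit reported. The causes were not tested. With 1 intact array left out, the uncalled changes of AT1G80850 (-0.056 to 0.0023), TET10 (-0.075 to 0.37), AT1G51380 (-0.30 to 0.13) and DLAH (-0.24 to 0.10) changed sign. AT1G79470 was called in 17 of 17 alternatives, AT2G37400 in 16 of 17, AT3G53940 in 14 of 16, AT3G57000 in 14 of 17 and AT5G38720 in 11 of 17. Arrays have no read depth, and signals near 16 are compressed by the pseudocount.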
